A study of Mus musculus with 7 samples.

Results

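JUNB sites that stood close together in the genome were collected from 4 CUT&RUN peak lists of mouse embryonic fibroblasts. An overlap of 1 bp between peaks of any of the 4 lists was enough for a join, which gave 12655 regions, and 2785 of them (22%) held a peak from every list. These are called common regions here. Of the common regions, 682 (24.5%) had another common region less than 12500 bp away, measured edge to edge, and these 682 members were chained into 299 clusters. The other 2103 common regions are called isolated. Membership was set by presence in the lists and by position alone, so the number, size and spacing of clusters are a description of what the rule selected. The overlap needed for a join moved these numbers strongly: 50% reciprocal overlap left 160 members in 70 clusters, and summits with 100 bp on each side left 313 in 136.

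The cells were the iMGT-Myh6-eGFP-MEF line, fibroblasts that carry doxycycline-inducible Mef2c, Gata4 and Tbx5 (MGT), the cardiac transcription factors used to turn fibroblasts into cardiomyocyte-like cells, and a green fluorescent reporter of the cardiac gene Myh6. Every library came from this 1 line at day 1 after doxycycline, so the siControl cells expressed MGT as well. By the titles, 2 JUNB libraries received a control siRNA (siControl) and 2 an siRNA against Chst7 (siChst7), which encodes a sulfotransferase of chondroitin sulfate chains. The protocol text, which lists siJunb, siH1f0 and siControl, has no mention of siChst7, and the groups here follow the titles and treatment labels. A further 3 IgG libraries, 1 of siControl and 2 of siChst7, were not analysed here. The titles mark the libraries as biological replicates, but nothing tells whether they came from separate cultures, so p-values measure only the spread between these samples, and that spread may be technical. Peak lists hold no expression, so the level of Chst7 and the fibroblast identity of the cells were not checked.

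JUNB is a subunit of AP-1, a family of paired leucine zipper proteins of the JUN, FOS, ATF and MAF groups. AP-1 binds the short palindrome TGANTCA, mostly at enhancers, where it acts with factors such as TEAD proteins of the Hippo pathway. In fibroblasts it is known for switching on genes of growth factor response, wound repair, adhesion and extracellular matrix. Groups of neighbouring enhancers around a gene are common at genes that define a cell's state, and the chaining distance used here is one in wide use for joining such neighbours.

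Of the 299 clusters, 3 stood apart in fold enrichment, the authors' ratio of signal at a peak to local background. They held 33 members with folds of 1.16 to 4.07, while the other 649 members, in 296 clusters, had folds of 3.50 to 68.1. The 3 were 16 members on an unplaced scaffold (59320 to 113374), 14 members near the start of the chromosome 9 assembly (3000317 to 3038161) and 3 members on chromosome 14 (19415826 to 19419276). All coordinates are 1-based on mm10. The 14 members on chromosome 9 and the 3 on chromosome 14 had no protein-coding gene end within 100 kb, and for the 16 on the scaffold the gene table, which covers placed chromosomes, gives none by its making. Their median −log10 q was 15.9 on the scaffold, 39.8 on chromosome 9 and 62.8 on chromosome 14, against 11.7 for the other members. The same positions were low in fold and present in every list. Without IgG, whether they hold JUNB or background was not tested. Several results that they touch are given with and without them, and the others, such as the gaps, include them.

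DNA at the members could be read where a member overlapped a promoter in the RefSeq table of GRCm38.p6, the assembly of mm10. The table gives 250 bases before to 50 after a start. For 30 genes, 38 such windows overlapped a clustered member, and 10 of the 38 (26.3%) held the AP-1 heptamer TGANTCA, which reads the same on both strands. It stood in 28 of 162 windows (17.3%) that overlapped isolated common regions and in 1485 of 21237 windows (6.99%) of all promoters, each 300 bases long. The clustered share rests on only 38 windows, and whether it differs from the isolated share was not tested. The cyclic AMP element TGACGTCA, also its own reverse complement, was in 5.26%, 6.17% and 2.24% of the same 3 sets. The TEAD hexamer GGAATG, searched on both strands, was in 23.7%, 18.5% and 13.6%. The GC box GGGCGG, searched on both strands, was in 68.4%, 56.8% and 46.2%. The cyclic AMP element and the heptamer share their outer bases, but neither contains the other. A match is a description of letters anywhere in the window, which can reach past the member. The Trappc3 heptamer (126262266 to 126262272), for example, lay outside its member, which ended at 126262197. The windows of 1 gene can overlap, and both Sgms2 windows with a heptamer overlapped the same member.

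The sequences below are the 250 bases before the start of 5 genes whose promoter heptamer lay inside a clustered member, and they are shown because they place the AP-1 letters within the mapped regions. They are written 5′ to 3′ on the strand of the gene, with the heptamer in capitals. The Capn2 window is chr1:182517611-182517860 on the minus strand, the Myl12a window chr17:71002534-71002783 on the minus strand and the Prnp window, shared with Prn, chr2:131909678-131909927 on the plus strand. The Sgms2 window is chr3:131490661-131490910 on the minus strand and the Septin7 window chr9:25251741-25251990 on the plus strand.
Capn2: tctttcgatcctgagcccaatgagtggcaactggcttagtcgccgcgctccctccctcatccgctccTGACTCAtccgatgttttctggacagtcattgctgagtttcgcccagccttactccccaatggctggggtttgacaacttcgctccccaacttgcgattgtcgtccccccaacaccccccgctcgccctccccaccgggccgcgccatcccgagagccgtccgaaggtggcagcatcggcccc
Myl12a: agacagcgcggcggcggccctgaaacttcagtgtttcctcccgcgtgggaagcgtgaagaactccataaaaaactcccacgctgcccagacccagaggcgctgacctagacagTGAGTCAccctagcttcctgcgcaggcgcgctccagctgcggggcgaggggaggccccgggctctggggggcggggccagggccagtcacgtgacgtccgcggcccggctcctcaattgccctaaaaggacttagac
Prnp: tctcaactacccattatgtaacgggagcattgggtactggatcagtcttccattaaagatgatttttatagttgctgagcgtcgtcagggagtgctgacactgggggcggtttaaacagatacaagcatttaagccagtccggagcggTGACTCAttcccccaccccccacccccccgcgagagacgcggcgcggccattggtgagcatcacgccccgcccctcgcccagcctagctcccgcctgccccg
Sgms2: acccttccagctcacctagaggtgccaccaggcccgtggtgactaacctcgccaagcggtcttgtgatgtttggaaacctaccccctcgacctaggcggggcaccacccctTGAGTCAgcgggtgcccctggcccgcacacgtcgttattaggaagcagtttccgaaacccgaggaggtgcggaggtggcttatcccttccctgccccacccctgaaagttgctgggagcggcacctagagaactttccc
Septin7: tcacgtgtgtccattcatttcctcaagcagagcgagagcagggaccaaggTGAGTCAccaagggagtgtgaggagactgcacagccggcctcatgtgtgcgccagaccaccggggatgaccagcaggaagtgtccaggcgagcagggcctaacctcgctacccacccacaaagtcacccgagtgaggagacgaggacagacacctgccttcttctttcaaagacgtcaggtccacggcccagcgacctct
The heptamer began 183 bases before the start of Capn2, a calpain protease that cuts adhesion proteins, and the 4 lists placed the summit of that member 205, 142, 195 and 136 bp from it. At Myl12a, a regulatory light chain of non-muscle myosin, it began 137 bases before the start, with summits 135, 101, 152 and 92 bp away. At Prnp, the prion protein gene, it began 102 bases before the start, with summits 193, 158, 161 and 113 bp away. At Sgms2, a sphingomyelin synthase, the summits lay 244, 314, 319 and 167 bp from a heptamer that began 139 bases before this start. The window of another Sgms2 start, not printed, held a heptamer in the same member (131490400 to 131490406), with summits 149, 79, 74 and 226 bp away, which was nearer in 3 of the 4 lists. The Septin7 heptamer began 200 bases before the start of this filament-forming GTPase gene, with summits 55, 121, 211 and 322 bp away. Rnh1 and 1810058I24Rik also had such a heptamer inside a clustered member and are not printed. Their summits lay 668, 585, 674 and 124 bp away at Rnh1, and 157, 36, 156 and 100 bp away at 1810058I24Rik. In the 5 printed windows no list put its summit on the heptamer itself, and the lists differed from each other in where the summit stood. Over all members the summits of the 4 lists spread over a median of 203 bp (quartiles 79.3 to 382), and over isolated regions 179 bp (82.0 to 337.5), so a position is known to about that distance. Without the low-fold clusters the median over members was 220 bp.

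Gaps between neighbouring common regions were most frequent at the shortest distances. Below 1 kb there were 67 gaps per kb of gap width, between 1 and 2.5 kb 55.3, and between 2.5 and 5 kb 34.8. The density fell further to 16 from 10 kb up to the chaining distance. Past that distance it was 15.2 up to 15 kb, 10 at 15 to 20 kb and 7.36 at 25 to 50 kb. Inside clusters the 383 gaps had a median of 3.43 kb and ran from 0.022 to 12.485 kb, while all 2764 gaps between neighbouring common regions had a median of 257 kb. The 3 largest gaps inside the limit were 12.485, 12.473 and 12.439 kb, and the 3 smallest outside it were 12.579, 12.656 and 12.676 kb. The gap density thus had no break at the chaining distance, and regions on both sides of the limit were of one continuous range.

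Most clusters were pairs. There were 250 clusters of 2 members (83.6%), 39 of 3, 6 of 4, and 1 each of 5, 6, 14 and 16, of which the clusters of 14 and 16 were of low fold. A cluster reached from its first to its last base over a median of 7.07 kb (quartiles 4.16 to 11.1). Pairs spanned a median of 6.29 kb (1.45 to 16.9) and the 38 triplets of ordinary fold 11.96 kb (5.87 to 27.4). The longest cluster was the 54.1 kb on the scaffold, and without the low-fold clusters it was 28.9 kb. All spans together covered 2477 kb, or 2381 kb without the low-fold clusters. Within a span the members themselves covered a median of 32.5% of the bases.

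**Figure D1:**
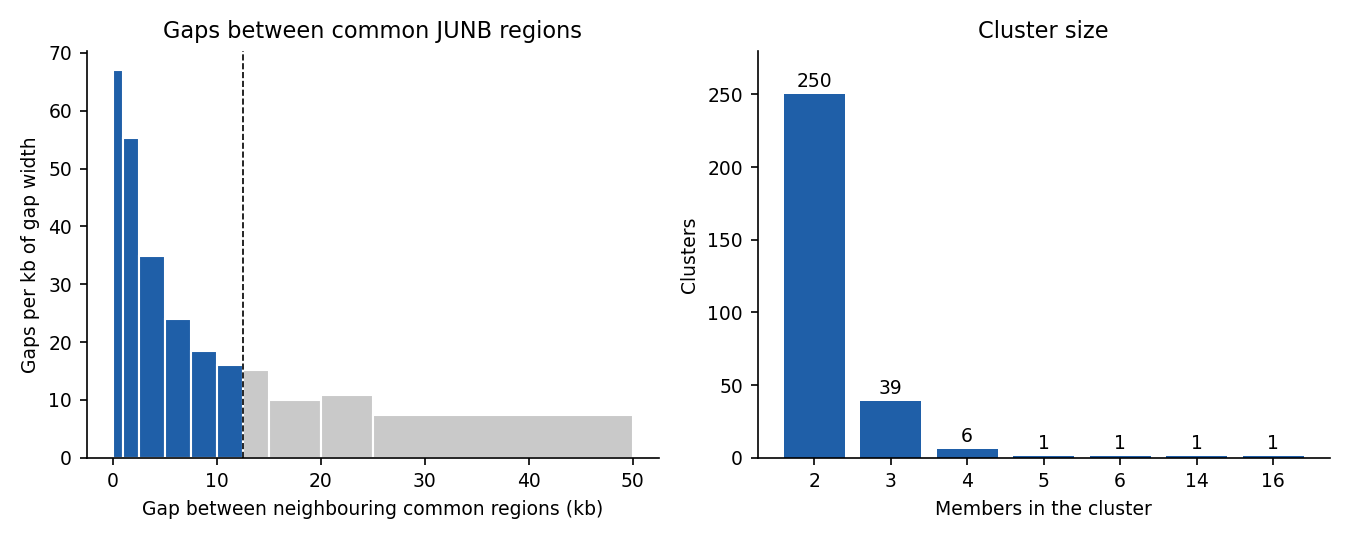
Left, gaps between neighbouring common JUNB regions per kb of gap width, over gap length in kb, with the chaining distance of 12500 bp as a dashed line, gaps inside clusters in blue and wider gaps in grey. Right, number of clusters by number of members. Gaps fall from 67 per kb below 1 kb to 7.36 per kb at 25 to 50 kb, and 250 of 299 clusters are pairs.

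The cluster with the most members of ordinary fold lay around Capn2 on chromosome 1 (182506319 to 182528824, 22.5 kb). Of its 6 members, 2 lay inside the gene, 1 spanned the start and 3 lay upstream. Folds are given in the order siControl replicates 1 and 2, siChst7 replicates 1 and 2, here and throughout, and are set against each other only within a list, because each list has its own scale. The member farthest upstream, 10.2 kb before the start (182527788 to 182528824), had folds of 30.8, 33.6, 24.1 and 15.1. The member over the start, whose heptamer is printed above (182516906 to 182518059), had 9.02, 7.73, 7.51 and 4.88. The distal member was the highest of the 6 in all 4 lists, with more than 3 times the fold of the start member in each.

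A cluster of 5 members on chromosome 10 (80147360 to 80168029, 20.7 kb) ran from Midn, a nuclear protein of early growth factor response, to Cirbp, a cold-inducible RNA-binding protein. Members spanned the start of each gene. The member over the start of Midn (80147360 to 80149526) had folds of 9.37, 10.8, 13.3 and 6.81. The member over the start of Cirbp (80166574 to 80168029) had 17.5, 9.45, 26.0 and 20.4. A further member, which overlapped the near end of the Cirbp gene body and lay 1.57 kb before the start given in the promoter table (80163267 to 80166267) had 29.1, 28.0, 37.0 and 32.2. It was the highest of the 5 in every list.

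At Cd109, which encodes a membrane-anchored co-receptor that restrains TGF-beta signalling, 4 members spanned 19.1 kb (chromosome 9, 78615432 to 78634525). The span overlapped the gene but was not wholly inside it. The member 7.38 kb from the gene end (78622924 to 78623999) had folds of 35.4, 31.1, 66.9 and 43.3. Its neighbour (78625339 to 78626963) had 14, 15.7, 24.2 and 14.3, and the outer members had 5.59 to 12.2. The order of the highest pair was the same in the 4 lists.

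In the other clusters of 4 no member had a fold above 26.1. Inside Bicral, a subunit of chromatin remodelling complexes (chromosome 17, 46866363 to 46880473), folds ran from 4.25 to 21.5. Inside Zfp469, a zinc finger gene of collagen-rich tissues (chromosome 8, 122173719 to 122187786), they ran from 4.97 to 12.2, and the lists did not share a highest member. Between D5Ertd579e and Bloc1s4, a subunit of a lysosome-related organelle complex (chromosome 5, 36713024 to 36725111), they ran from 4.01 to 25. Inside Dlgap1, a scaffold protein of synapses (chromosome 17, 70719631 to 70748512), the 4 members made the longest cluster of ordinary fold, 28.9 kb, with 4.25 to 26.1. A cluster on chromosome 12 (70694956 to 70712832) had no protein-coding gene end within 100 kb of any member. Its first member (70694956 to 70695789) had folds of 20.7, 15.6, 19.4 and 15.4 and was the highest in every list.

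**Figure D2:**
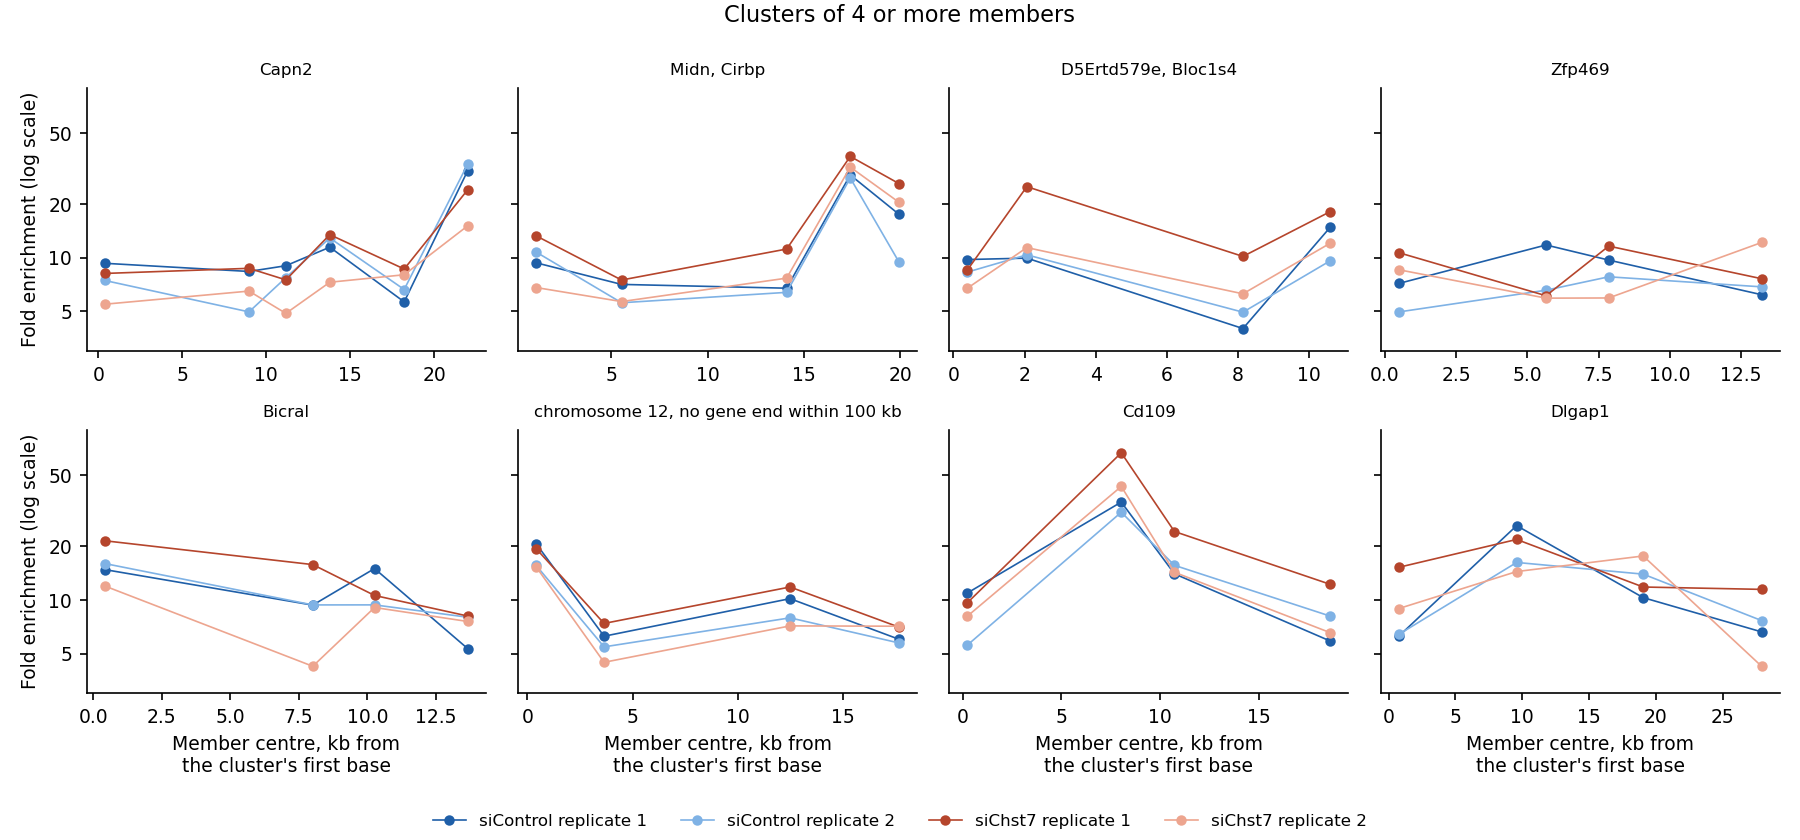
Fold enrichment, on a log axis, of each member in the 8 clusters of 4 or more members without the low-fold clusters, over the distance of the member's centre from the first base of the cluster in kb. Each line is 1 of the 4 JUNB lists, and the same member is highest in all 4 at Capn2, Midn and Cirbp, the chromosome 12 cluster and Cd109.

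Other long and compact clusters held 3 members. One of 27.4 kb on chromosome 8 (122342327 to 122369724) lay past Zfpm1, a cofactor of GATA factors, and across Trhr2. The shortest clusters of 3 with ordinary fold were those between Map7d1 and Trappc3 (chromosome 4, from 126256333, 5.87 kb) and at Ccn4, a matricellular protein of WNT response (chromosome 15, from 66888461, 5.95 kb). At Ccn4 the member over a gene end (66890856 to 66891537) had folds of 8.38, 9.39, 14.9 and 14.9.

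The 5 clusters with the best mean rank of fold over members and lists were all pairs. One lay within Ltbp1, which encodes a protein that stores latent TGF-beta in the matrix (chromosome 17, 75105504 to 75111727). Its members had folds of 14.3, 12.6, 20.8 and 14.3, and of 38.6, 27.1, 32.7 and 25.8. Both lay more than 100 kb from the nearest gene end and so were assigned to no gene. The pair nearest to Tpcn2, a lysosomal ion channel (chromosome 7, from 145105795), had 45.1, 41.0, 57.1 and 35.3 in its first member, 73.3 kb from the gene end. Its second member had 20.6, 16.5, 24.2 and 15.1. The pair between Fem1a and Ticam1, an adaptor of innate immune receptors (chromosome 17, 56265842 to 56277622), had folds of 11.9 to 22.9. The pair near Ell2, an elongation factor of RNA polymerase II (chromosome 13, from 75789003), had 11.4 to 19.6, and that near Atp5o, a subunit of ATP synthase (chromosome 16, from 91962006), had 8.83 to 25.4. The rank that chose these 5 pairs is itself made of their folds, so their height is a description.

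A fold of at least 20 in every list was reached by 18 members (2.64%, exact Clopper-Pearson 95% interval 1.57 to 4.14) and by 25 isolated regions (1.19%, 0.771 to 1.75). This limit was chosen after the values were seen. The 18 stood in 18 different clusters. No cluster held a pair of them, which at 2.64% of members would be rare in any case. The 18 included a member over a start of Lmna, the nuclear lamin A gene (chromosome 3, 88503102 to 88504400), with 50.3, 31.7, 60.6 and 21.9. A member near Eef1g and Ahnak, a large scaffold protein of the membrane cytoskeleton (chromosome 19, 8981156 to 8985069), had 34.6, 36.3, 68.1 and 39.7. A member near Nanos3 on chromosome 8 (84191406 to 84193163) had 27.1, 32.9, 23.9 and 29.1.

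Each clustered region was given to the protein-coding gene with the nearest end within 100 kb. By this assignment 279 of 21883 genes (1.27%) were nearest to a clustered region and 1822 (8.33%) to any common region, so that 15.3% of the genes with a common region had a clustered one. Of 14 gene lists, written with earlier results of these data known, 24 genes had a clustered region. These counts are descriptions, and they were not corrected for how much of the genome lies nearest to each gene. When the gene end had to lie within 20 kb, 18 list genes and 0.877% of all genes had one. With gene bodies and 5 kb on each side, 17 list genes and 1.01% of all genes did.

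Adhesion and actin cytoskeleton genes had the most clustered regions of any list, 21 members at 5 of 30 genes, and 18 of the 30 had a common region. The 5 were Capn2, Myh9, Cd44, Lpp and Bcar1. Myh9, the heavy chain of non-muscle myosin IIA, had a triplet inside the gene (chromosome 15, 77794683 to 77801473) and a pair that reached its start (77835912 to 77843052). The member over the start (77841896 to 77843052) had folds of 11.3, 7.18, 8.46 and 6.53, and the triplet 4.93 to 14.4. Lpp, a LIM protein of focal adhesions, held a triplet (chromosome 16, 24427597 to 24435580) with 6.87 to 14.2 and, farther inside the gene, a pair (24490218 to 24499011) with 6.04 to 16. Cd44, the hyaluronan receptor, had a pair that flanked its start (chromosome 2, 102894992 to 102906347) and another pair 42.0 to 54.8 kb upstream (102943637 to 102957345). The member 3.76 kb before the start (102905423 to 102906347) had 8.11, 6.77, 19 and 11.4. Bcar1, the adaptor p130Cas of integrin signalling, had a pair 1.56 and 3.89 kb upstream (chromosome 8, 111745406 to 111748496), and the nearer member had 18.7, 12.6, 29.0 and 8.08. All 5 genes kept a clustered region when gene bodies with 5 kb were used, and Lpp lost its own when the gene end had to be within 20 kb.

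Immediate-early and MAPK feedback genes had clustered regions at 4 of 24, with 13 of the 24 owning a common region. They were Dusp1 and Dusp6, phosphatases that switch off MAP kinases, Klf6, a zinc finger factor of the early response, and Hbegf, a ligand of the EGF receptor. Dusp1 had 2 pairs upstream of its start on chromosome 17. In the proximal pair (26508656 to 26515585) the member 0.184 kb upstream had folds of 12.2, 8.08, 11.2 and 8.83, and the member 5.46 kb upstream had 20.2, 17.7, 22.8 and 15.2. In the distal pair (26529403 to 26534467) the member 20.9 kb upstream had 28.3, 16.8, 21.9 and 15, and that 24.9 kb upstream had 10.3, 11.4, 12.1 and 4.94. The member nearest to the start was thus not the highest of the 4 in any list. Klf6 had a triplet 15.2 to 34.7 kb upstream (chromosome 13, 5825795 to 5846247) with 5.48 to 16.7, and its highest member differed between lists. Dusp6 had a pair 20.3 and 24.9 kb upstream (chromosome 10, 99237066 to 99242926) with 3.75 to 15.6. Hbegf, on chromosome 18, had 2 pairs, 1 at a gene end, with a member inside the gene and another 0.195 kb outside it, and 1 farther out, with 4.22 to 13.0 over the 4 members. When the gene end had to be within 20 kb, 3 of 24 genes had a clustered region, without Dusp6. With gene bodies and 5 kb on each side 2 of 24 did, Dusp1 and Hbegf.

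The AP-1 family itself had clustered regions at 3 of 19 genes, and 11 of the 19 had a common region. Atf3, a stress-induced family member, had a pair 32.5 and 38.5 kb upstream (chromosome 1, 191215833 to 191222541). The nearer member had folds of 18, 13.4, 20.0 and 11.2 and was the higher in every list, and the other had 7.32, 5.93, 4.39 and 7.94. Mafk, a small MAF protein, held a pair inside the gene 1.39 and 5.16 kb after its start (chromosome 5, 139792928 to 139798341) with 4.25 to 11.9. Bach2, a repressor that pairs with small MAF proteins, was the nearest gene to a triplet 58.0 to 67.8 kb from its end (chromosome 4, 32169725 to 32180447). The third of these members (32179707 to 32180447) had 14.8, 14.9, 17.3 and 12.6. Only Mafk of the 3 kept a clustered region when the gene end had to be within 20 kb, or when gene bodies with 5 kb were used.

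TGF-beta and myofibroblast genes had clustered regions at 3 of 26, with 9 owning a common region. Tgfb2, a TGF-beta ligand, was nearest to a pair beyond its far end (chromosome 1, 186580805 to 186587709), 35.1 and 40.3 kb from it, with folds of 6.77 to 17.8. Smad7, the inhibitory SMAD of the pathway, on chromosome 18, had a pair with 5.11 to 9.15, and 1 of the members lay inside the gene. With gene bodies and 5 kb on each side, Ltbp1 entered this list and Tgfb2 left it, as Tgfb2 did when the gene end had to be within 20 kb. Ltbp1 held the pair described above and a triplet (chromosome 17, 75250345 to 75259130) with folds of 5.87 to 18.8. Hippo pathway genes had clustered regions at 2 of 16, with 7 owning a common region, and both stayed under either other assignment. Tead1, a DNA-binding partner of YAP, held 2 pairs inside the gene (chromosome 7, 112696861 to 112701020 and 112717684 to 112721110) with 4.96 to 13.8. Ankrd1, a YAP target that is also a cardiac stress gene, had a member over its start (chromosome 19, 36119800 to 36121023) with 8.84, 6.61, 9.70 and 14.5. Its partner 9.19 kb upstream had 5.80, 4.97, 13.3 and 8.20.

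Proteoglycan core protein genes, whose products carry sulfated chains, had clustered regions at 2 of 20 and common ones at 7. They were Cd44 and Sdc4, a syndecan of focal adhesions. Sdc4 held a pair inside the gene, of which the member 3.33 kb after the start (chromosome 2, 164438505 to 164439862) had folds of 12.8, 10.8, 22.5 and 14.4 and was the higher in every list. Of 32 glycosaminoglycan sulfation genes, the family of Chst7, 7 had a common region and 1 a clustered one. This was Ndst1, a heparan sulfate sulfotransferase on chromosome 18, whose member had 5.80, 4.42, 10.2 and 6.04 and stood beside one nearest to Rps14. Fibroblast identity genes had common regions at 12 of 35 and a clustered one at 1. That gene was Fbln2, a matrix glycoprotein, where the triplet reached toward Hdac11 (chromosome 6, 91192505 to 91208004). The middle member, 9.21 kb from the Fbln2 end (91201878 to 91203255), had 31.4, 30.4, 34.1 and 36.6, and the outer members had 6.31 to 10.4. Of 24 inflammatory genes 8 had a common region and 1, the monocyte chemokine Ccl2, a clustered one, 0.360 and 1.74 kb from its end with 4.80 to 8.65 (chromosome 11, 82032768 to 82035217).

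The cardiac lists had no clustered region. Cardiac transcription factor genes had common regions at 8 of 24 and clustered ones at 0, and cardiomyocyte structural and ion handling genes at 3 of 31 and 0. With gene bodies and 5 kb on each side, Myom1, a sarcomere protein gene, counted for the second list, because the start member of Myl12a also overlaps Myom1. Among marker lists of other cell types, macrophage genes had neither kind in 11, endothelial genes a clustered region at 1 of 12 (5 with a common one), and epithelial genes at 2 of 10 (3 with a common one). The endothelial gene was Flt1, a VEGF receptor, with a triplet 60.1 to 66.3 kb upstream (chromosome 5, 147786561 to 147793370) and folds of 4.4 to 16.6. The epithelial genes were the keratins Krt8 and Krt18, which shared 1 pair (chromosome 15, 102005176 to 102016686) with 5.34 to 12.7, so their count rests on 1 cluster. With gene bodies and 5 kb on each side Flt1, Krt18 and Ndst1 had no clustered region, and Flt1 had none when the gene end had to be within 20 kb. At the share of all genes, 1.27%, a list of 24 or 31 genes would hold fewer than 1 such gene on average, so a count of 0 in the cardiac lists carries little information.

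**Figure D3:**
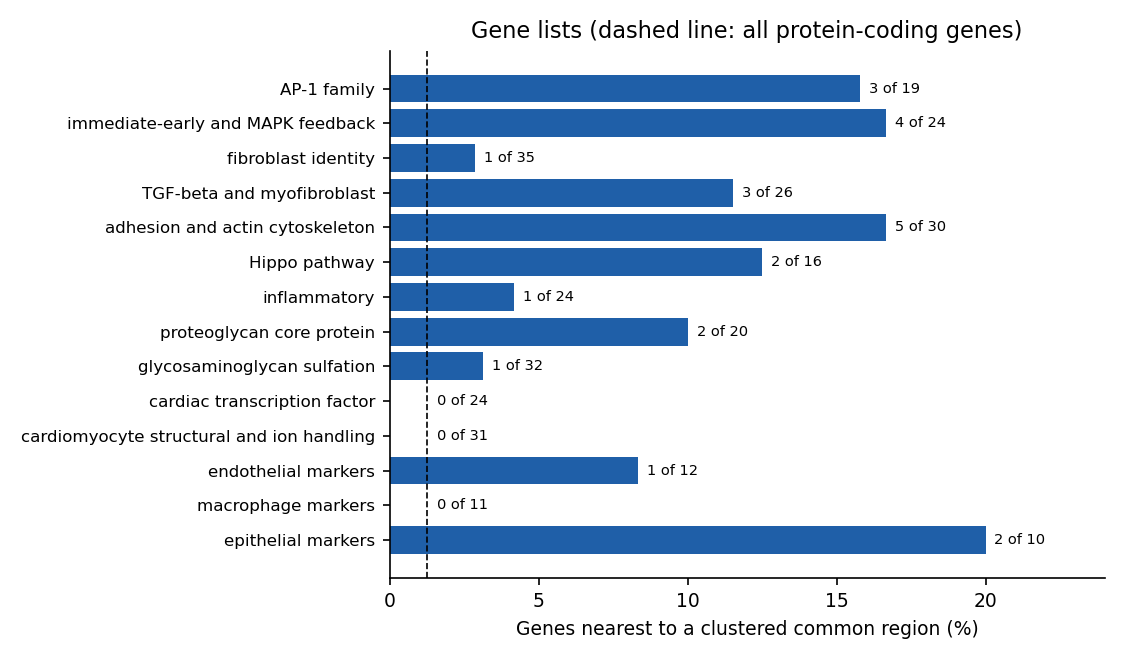
Share of the genes in each of 14 lists that are nearest to a clustered common region, in percent, with the number of genes beside each bar and the share of all protein-coding genes, 1.27%, as a dashed line. Adhesion and actin genes (5 of 30) and immediate-early genes (4 of 24) have the same share, and the cardiac and macrophage lists have 0.

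By nearest gene end, members of 2 separate clusters belonged to 14 genes, 0.064% of all, and no gene had 3. Ltbp1 held 2 clusters within its gene body but was not counted, since no gene end lay within 100 kb of them. Myh9, Arid5b and Cubn had 5 members each. Arhgap10, Cd44, Col4a2, Dusp1, Hbegf, Irf2bp2, Lpp, Rapgef1 and Tead1 had 4 each, and Ahnak and Frmd8 had 3. In Arid5b, an AT-rich DNA-binding cofactor, all 5 members lay inside the gene on chromosome 10, and the highest (68156402 to 68157351) had folds of 12.3, 19, 24.9 and 13.7. In Cubn, an endocytic receptor of kidney and gut epithelium, they also lay inside the gene, on chromosome 2, and the highest (13409436 to 13411565) had 22.2, 14.1, 23.3 and 22.7. Rapgef1, a guanine nucleotide exchange factor of adhesion signalling, held a pair 1.08 and 4.45 kb after its start and another pair toward its other end. The clusters of Col4a2, a basement membrane collagen, lay in 2 genes. A pair stood inside its neighbour Col4a1, and a triplet stood inside Col4a2 itself, where 1 of the 3 members was nearest to the end of Col4a1.

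Over all clusters, 121 (40.5%) lay wholly within 1 gene body, 130 (43.5%) overlapped no protein-coding gene and 48 (16.1%) overlapped a gene in part. A start of the promoter table stood inside the span of 36 of the 299 clusters (12%). The 10 clusters on chromosome 18 and the 1 on the scaffold could not count, because no start was at hand there. The promoter table also lacks some genes elsewhere, so 36 is a lower limit. All members with a nearest gene shared it in 242 clusters, 25 clusters had members nearest to different genes, and 32 had no gene end within 100 kb, of which 29 were of ordinary fold. Whether a member lay in an exon or an intron was not determined.

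A smaller share of members than of isolated regions lay near transcription starts: 41 of 646 (6.35%, exact Clopper-Pearson interval 4.59 to 8.51) were within 1 kb of a start, against 196 of 2035 (9.63%, 8.38 to 11.0), with intervals that just overlap. The difference of −3.28 percentage points shrank to −0.773 with 50% reciprocal overlap. These denominators leave out chromosome 18 and unplaced scaffolds, for which no start was at hand. Starts were at hand for 17491 of the 21883 genes, so some regions were set against the start of a farther gene. The members inside Lamc1, for example, were set against a start of Shcbp1l 124 and 120 kb away. All shares and distances by start in this paragraph carry that limit. For either gene end within 1 kb the shares were 8.94% (6.91 to 11.3) and 10.8% (9.54 to 12.2), with overlapping intervals. A gene body was overlapped by 48.7% of members (44.9 to 52.5) and 55.0% of isolated regions (52.8 to 57.1), and by 51.2% of members (47.2 to 55.1) without the low-fold clusters. Of regions that did not span the start nearest to them, 51.0% of members (47.0 to 55.0) and 46.1% of isolated regions (43.8 to 48.3) lay upstream. The median distance to a start was 35.1 kb for members and 34.7 kb for isolated regions. Positions are shared by the 4 lists, so no test over libraries applies, the intervals cover counting error only, and members of a cluster are not independent of each other.

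Clustered regions made up 35.7% of common regions on chromosome 17 (46 of 129) and 30.8% on chromosome 15 (45 of 146). The lowest shares were 15.8% on the X chromosome (3 of 19) and 17.3% on chromosome 13 (24 of 139). On the unplaced scaffold all 16 common regions were clustered.

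Some clusters lay within 5 kb of microRNA hairpins, of which a selection is given here. No microRNA level was measured, so the mature sequences below serve only to identify these neighbours, with the seed (bases 2 to 8) in capitals, as RefSeq gives them on GRCm38.p6.
miR-22-3p: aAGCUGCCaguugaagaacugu
miR-1941-5p: aGGGAGAUgcugguacagaggcuu
miR-23a-3p: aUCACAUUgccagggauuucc
miR-27a-3p: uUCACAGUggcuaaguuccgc
miR-24-3p: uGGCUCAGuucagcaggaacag
The miR-22 hairpin (chromosome 11, 75463716 to 75463810) began 0.239 kb from a member of the pair between Wdr81 and Tlcd2, which had folds of 10.1, 7.18, 16.8 and 6.87. The miR-1941 hairpin (chromosome 15, 101369352 to 101369434) lay inside a member at the keratin gene Krt80 with 18, 11.3, 9.89 and 11.5. The hairpins of miR-23a, miR-27a and miR-24-2, transcribed together, lay 4.48 to 4.78 kb from the cluster of Nanos3 and Zswim4 on chromosome 8. The 5 seeds differed from each other, so these microRNAs form no shared seed group. Hairpins not printed include miR-3109, 0.476 kb from a member at Anxa2, and miR-5625, inside the span of the cluster at Slc35f6. How often hairpins lie this near to isolated regions was not determined.

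The fold of clustered and isolated regions was compared within each list, since the rule did not use it beyond presence. In siControl the median fold of members was 8.87 and 8.08, against 8.93 and 8.08 in isolated regions. In siChst7 it was 11.0 and 7.68, against 10.6 and 7.75. The difference of the median log2 folds, members minus isolated, was −0.01, 0.00, 0.05 and −0.01 in the 4 lists, with a mean of 0.01 (two-sided exact sign-flip permutation test over 4 libraries, p = 1). Without the low-fold clusters it was 0.04. Those clusters were left out for their low fold, while 6 isolated regions with a median fold under 3 stayed, so no test applies to this value. The direction of the difference turned in several alternatives, with values down to −0.07. At the upper end the share of members was larger: 11.9%, 12%, 11.4% and 11.3% of members stood in the top 10% of common regions of each list, against 9.42%, 9.32%, 9.56% and 9.46% of isolated regions.

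Members were wider. The median width of a region in a list's own peaks was 698.5, 576.5, 837.5 and 598.5 bp for members and 629, 545, 776 and 534 bp for isolated regions. The members were wider in 4 of 4 lists, by a mean of 56.8 bp. Without the low-fold clusters they were wider by 61, 18, 77 and 60 bp. A wider region has its edge nearer to its neighbour, so width enters the rule, and how far it does was not tested. The difference in width is thus tied to the rule, and no test applies to it. A region joined from 2 or more peaks of the same list made up 5.43%, 6.45%, 3.81% and 5.28% of members and 3.61%, 4.52%, 2.47% and 3.33% of isolated regions.

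**Figure D4:**
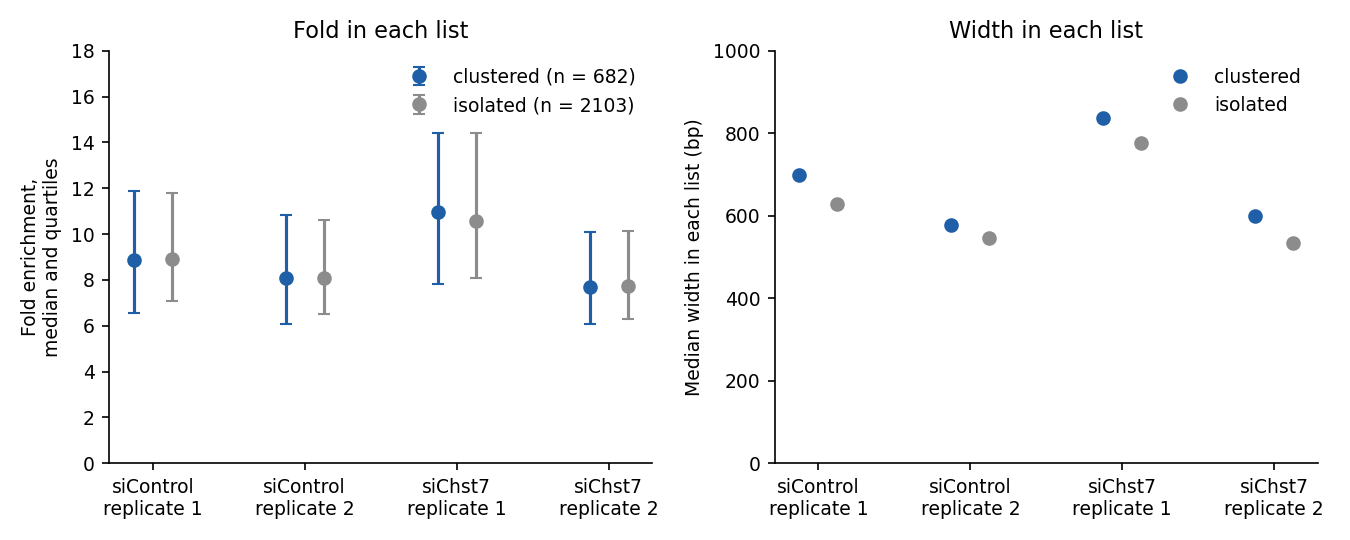
Left, median fold enrichment with quartiles of 682 clustered (blue) and 2103 isolated (grey) common regions in each of the 4 lists. Right, their median width in bp in each list. The log2 medians of fold differ by −0.01 to 0.05 between the sets within a list, and clustered regions are wider by 31.5 to 69.5 bp.

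Within a cluster the lists often placed the highest fold on the same member. All 4 lists had the same highest member in 148 of 299 clusters (49.5%), among them 124 of the 250 pairs (49.6%) and 21 of 46 larger clusters of ordinary fold (45.7%). Between any 2 lists the highest member was the same in 68.9% to 76.3% of clusters. The siControl lists shared it in 76.3% and the siChst7 lists in 71.2%, while lists of different groups shared it in 68.9% to 71.9%. The siChst7 pair lay within the range of the mixed pairs and the siControl pair above it, and the difference was not tested. The highest member had a median of 1.65, 1.62, 1.69 and 1.55 times the fold of the lowest in the 4 lists, and at least 2 times in 31.1%, 31.4%, 32.4% and 23.1% of clusters.

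A member's fold said little about that of its neighbour. Over 353 neighbouring pairs less than 12500 bp apart, without the low-fold clusters, Pearson's r between the log2 folds was −0.03, 0.04, 0.00 and 0.00 in the 4 lists, and Spearman's rho was −0.05, 0.04, −0.01 and −0.05. These are correlations across pairs within a list, some of which share a region, and they are given as a description. Pairs farther apart, up to 50 kb, had r of 0.00 to 0.06.

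The space between members held further regions called in 1 to 3 lists. Without the low-fold clusters there were 125 in 1659 kb, 7.53 per 100 kb. Within 12500 bp outside the clusters there were 3.88 per 100 kb, within 12500 bp of isolated common regions 2.60, and within 2.5 kb of them 4.51. The space between members is flanked by a common region on each side and the other spaces mostly on 1 side, so they are not equal in distance to a common region. By list the density between members was 2.41, 1.33, 5.73 and 1.15 per 100 kb, against 1.51, 1.14, 3.25 and 1.01 within 2.5 kb of isolated regions. It was higher between members in 4 of 4 lists, and this difference was not tested. Against 0.979, 0.718, 1.90 and 0.531 within 12500 bp of isolated regions it was also higher in 4 of 4, by a mean of 1.62 per 100 kb. The rule chose members for a common region less than 12500 bp away and isolated regions for having none. Density over that distance is thus tied to the rule, and the difference is a description to which no test applies. Of the 125 regions, 88 were in 1 list, 23 in 2 and 14 in 3. The pair of siControl lists alone had 0 of the 125 and the pair of siChst7 lists alone 6. In the whole series they had 203 and 491 of 9870 regions of 1 to 3 lists. The siChst7 share was thus close to that of the whole series, the counts are small, and no difference was tested. The longest list, siChst7 replicate 1, had called 76.0% of the 125 and 73.7% of all 9870 regions of 1 to 3 lists, and siControl replicate 2 had called 17.6% and 29.1%.

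Clustering was also measured in each list on its own, without asking for a peak in the other lists. In siControl, 37.8% and 35.0% of a list's peaks had another peak of the same list less than 12500 bp away (mean 36.4% ± 1.98, SD, n = 2). In siChst7 the shares were 46.1% and 33.3% (mean 39.7% ± 9.03, SD, n = 2). The siChst7 libraries lay above and below both siControl libraries, and the difference of 3.26 percentage points was smaller than the spread between the siChst7 libraries (two-sided exact permutation test, p = 1, smallest possible 0.33). List length moved with the share: the lists held 6469, 5827, 10163 and 4735 peaks, and the longest had the highest share and the shortest the lowest. With all lists at the length of the shortest, the difference was 0.697 percentage points, and without siChst7 replicate 1 it was −3.12. Peaks in the clustered common regions numbered 720, 730, 711 and 721, which is 11.1%, 12.53%, 7.0% and 15.2% of the respective lists.

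**Figure D5:**
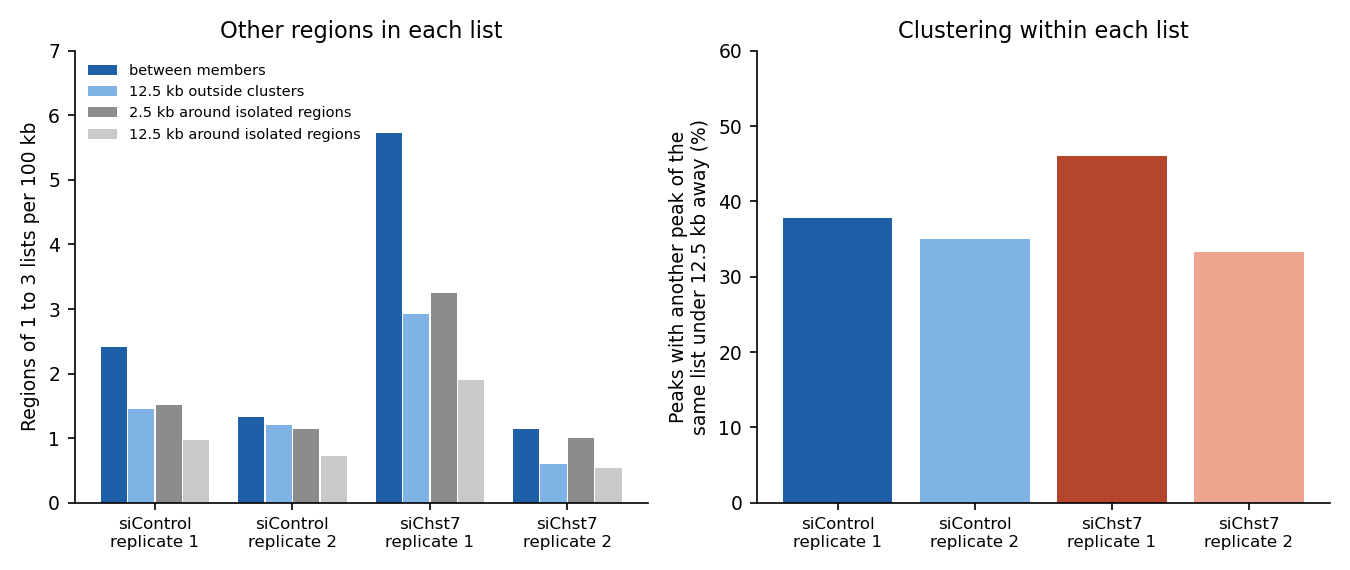
Left, regions of 1 to 3 lists per 100 kb that each list called between members, within 12500 bp outside clusters, and within 2.5 kb and 12500 bp of isolated common regions. Right, share of each list's own peaks, in percent, with another peak of that list less than 12500 bp away, where the siChst7 libraries (46.1% and 33.3%) lie on both sides of the siControl libraries (37.8% and 35.0%).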

How the data were processed

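CUT&RUN, in which a nuclease tethered to an antibody cuts out bound DNA, was used for JUNB in 4 libraries (2 siControl, 2 siChst7). Bowtie2, MACS3 and mm10 stand in the submitters' processing notes, with no version or setting, and whether peaks were called against IgG is not stated there. Each deposited list holds the peaks of 1 library, as its peak names show. The deposited fold enrichment is a ratio from the authors' peak caller, the deposited q-value is a −log10 value, and the lists end near a q of 0.01. The deposited summit offset, a distance in bp, gave summit positions. Both are values that the authors' peak caller gave to 1 peak. The highest peak of a region was used, and values were ranked or compared within a list only. The sample descriptions give 30 M reads each; the true depth is unknown here, and intervals (exact Clopper-Pearson, 95%) cover counting error only.

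Peaks were joined at an overlap of 1 bp and common regions were chained at gaps under 12.5 kb. Genes came from a RefSeq table of GRCm38.p6 with 21883 protein-coding genes on placed chromosomes. Start sites came from its promoter table, which holds starts for 17491 of them, none on chromosome 18. All gene list entries matched, and 1 item that the naming rule selects is not reported here. The members, the gene lists and the tests were chosen with earlier results of these data known. Clusters were named by rule: the 10 with the most members, the 5 longest, the 5 of best mean rank, up to 4 per gene list and the 3 shortest with 3 or more members. Genes with 2 clusters, members of high fold, promoters and microRNAs were added with their values in view. Tests were two-sided exact permutations over the 4 libraries. The joining and chaining were tested on simulated lists. Alternatives were another overlap rule, summit windows, equal list length, a q limit of 0.001, a fold limit of 3, autosomes and X alone, chaining at 5 or 25 kb, a start window of 2.5 kb, other gene assignments, a replicate block and leaving out each library. Software was Python 3.11.15, NumPy 2.4.6, pandas 2.3.3, SciPy 1.17.1 and Matplotlib 3.10.9.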

Additional observations from a re-analysis of the deposited data

How the results depend on the processing

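The number of members and clusters followed the definition of a region. Against 682 members in 299 clusters, 50% reciprocal overlap gave 160 in 70, summits with 100 bp on each side 313 in 136, equal list length 449 in 198 and chaining at 5 kb 427 in 190. Leaving out 1 library gave 685 to 1021 members in 296 to 442 clusters, since a region then needs 3 lists. Without the 3 low-fold clusters, an alternative chosen after seeing the data, 649 members in 296 clusters remained.

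The difference in median log2 fold between members and isolated regions, 0.00743, turned to −0.0250 with 50% reciprocal overlap, −0.0704 with summit windows, −0.0202 at equal list length, −0.0140 with chaining at 5 kb and −0.0241 at a q limit of 0.001. Without siChst7 replicate 1 it was −0.0124, and leaving out each library gave −0.0124 to 0.0232. The cause was not tested. The difference in width stayed positive, at 54.8 to 74.7 bp without 1 library. It has no value for summit windows, whose width is fixed. The difference in the share within 1 kb of a start was −3.51 to −1.57 percentage points without 1 library and −0.773 with 50% reciprocal overlap.

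The siChst7 minus siControl difference in clustering of each list's own peaks ran from −3.12 without siChst7 replicate 1 to 9.64 without siChst7 replicate 2. The titles give both groups replicate numbers 1 and 2, and nothing in them ties a number to a shared culture or day. With the replicate block the difference was 3.26 (exact permutation p = 1). Peak lists give no read counts, so signal below the threshold of a list is not seen.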
